A study of Mus musculus with 65 samples.

Results

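Of 14812 regions in the deposited H3.3 comparison of mouse embryonic stem cells, 1084 had lost H3.3 by day 6 of differentiation, which is 7.32% of the table. A region was taken when the log2 ratio of its mean day 6 to its mean day 0 scaled reads, with 1 added to each mean, was −0.6 or less. Both day 6 libraries also had to lie below both day 0 libraries. The regions were thus chosen by their H3.3 reads on both days, and the H3.3 values below describe that choice and are not tested. A mirrored rule for gain, with a log2 ratio of 0.6 or more, took 486 regions, and 13242 regions met neither rule. The loss regions carry 949 different gene names in the deposited annotation, 107 of them more than once.

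ChIP-seq was done in wild-type cells as embryoid bodies after 6 days with 10 µM all-trans retinoic acid and without leukaemia inhibitory factor (day 6), and as stem cells kept with the factor (day 0). The 4 antibodies were raised to H3.3, H3, H3K27me3 and H3.3K27me3, with 2 biological duplicates each. Some deposited titles call the H3 and H3K27me3 data H3.1, and the isoform specificity of these antibodies is not stated. RNA was sequenced in 2019 from wild-type cells at days 0, 3 and 6 (2 libraries each). In 2020 it was sequenced from a CRISPR-made H3.3A knockout line, a CRISPR-made H3.3K27A line and wild-type cells at days 6 and 0 (2 libraries each, but 1 for wild type at day 0). The RNA samples of days 3 and 6, those of the edited lines included, also had 10 µM retinoic acid, and those of day 0 had none. The labels do not say which H3.3 gene the H3.3K27A line changes, or how many clones either line stands for. They also do not say that RNA duplicates came from separate cultures, so the RNA tests take in only how much the deposited duplicates vary, which may be technical.

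Histone H3.3 is a variant of histone H3 that is placed in chromatin outside DNA replication, at active genes and enhancers by the chaperone HIRA and at repeats and telomeres by ATRX and DAXX. A pair of genes, H3f3a and H3f3b, codes for it. In stem cells it marks the regulatory DNA of expressed genes, and also retroviral repeats. H3K27me3 is the mark of Polycomb repressive complex 2 and covers the promoters of silent developmental genes.

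Stem cell marker RNA was high at day 0 and low later. The summed level of 10 stem cell markers was 7673 and 7251 CPM (gene counts scaled to a common library total) in the day 0 libraries of 2019, 962 and 945 CPM at day 3, and 303 and 301 CPM at day 6. Neural, endoderm and fibroblast markers were higher at day 6 than at day 0 in 7 of 8, 6 of 6 and 4 of 5 cases (edgeR adjusted p below 0.05). Embryoid bodies are a mixture, and in bulk samples fewer cells of a type and less of a signal per cell cannot be told apart. H3.3 libraries held 81.6 and 56.1 M tags at day 6 and 55.6 and 54.8 M at day 0. RNA libraries held 6.97 to 12.7 M gene counts in 2019 and 14.3 to 22.0 M in 2020.

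Short sequences recurred among some of the loss regions. In regions narrower than 20 kb, a sample of 1 in 40 of the possible stretches of 24 bases was searched. The search covered 806 loss regions, 372 gain regions and 6288 others. Stretches in at least 15 loss regions were ranked, and the 4 below, called elements, lay mostly in different loss regions. Whether they belong to separate repeats was not tested. They are shown because they recurred in the loss regions at a higher share than in the other regions, although each lay in fewer than 5% of the loss regions. Each line gives 120 bases of the mm10 genome (GRCm38.p6 from RefSeq) around 1 copy, and the capitals mark the 24 bases searched. No repeat annotation was used here, so the elements are not given a family name.
Element 1, Mir6393 region, chr15:87895472-87895591, plus strand: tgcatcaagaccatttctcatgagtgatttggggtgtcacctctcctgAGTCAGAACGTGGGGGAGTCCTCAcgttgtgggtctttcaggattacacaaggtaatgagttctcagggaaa
Element 1, Bclaf3 region, chrX:159522146-159522265, minus strand: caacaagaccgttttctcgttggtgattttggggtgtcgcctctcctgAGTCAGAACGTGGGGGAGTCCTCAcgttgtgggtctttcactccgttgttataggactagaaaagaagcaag
Element 2, Cyp4f16 region, chr17:32563419-32563538, minus strand: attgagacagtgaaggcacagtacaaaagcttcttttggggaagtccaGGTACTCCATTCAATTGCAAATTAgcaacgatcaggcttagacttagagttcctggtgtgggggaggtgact
Element 2, Olfr867 region, chr9:20070378-20070497, minus strand: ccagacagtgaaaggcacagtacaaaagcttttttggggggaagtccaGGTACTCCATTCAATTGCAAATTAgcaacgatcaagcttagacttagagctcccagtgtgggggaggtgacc
Element 3, Cdk6 region, chr5:3167437-3167556, plus strand: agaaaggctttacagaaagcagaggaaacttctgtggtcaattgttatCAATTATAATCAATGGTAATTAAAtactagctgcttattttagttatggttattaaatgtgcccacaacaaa
Element 3, Speer6-ps1 region, chr13:3241817-3241936, plus strand: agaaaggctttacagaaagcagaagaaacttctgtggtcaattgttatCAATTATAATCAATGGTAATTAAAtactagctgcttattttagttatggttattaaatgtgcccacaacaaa
Element 4, Mrgprb8 region, chr7:48408071-48408190, plus strand: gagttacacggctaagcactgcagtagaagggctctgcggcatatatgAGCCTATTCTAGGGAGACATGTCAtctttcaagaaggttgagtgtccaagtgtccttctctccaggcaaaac
Element 4, Upp2 region, chr2:58677363-58677482, plus strand: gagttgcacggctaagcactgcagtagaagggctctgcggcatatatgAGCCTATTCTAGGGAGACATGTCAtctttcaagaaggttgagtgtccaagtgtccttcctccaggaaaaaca

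Element 1 lay in 35 loss regions (4.34% of those searched), in 0 gain regions and in 26 others (0.413%). Element 2 lay in 32 loss regions (3.97%), 0 gain regions and 5 others (0.0795%). Element 3 was found in 29 loss regions and 11 others, and element 4 in 28 and 20, again in 0 gain regions each. The stretches were found by searching the loss regions themselves, so these counts describe them and are not tested. Outside the capitals the copies differed to varying degrees. The element 3 windows of Cdk6 and Speer6-ps1 had 119 of 120 bases in common, those of element 4 in Mrgprb8 and Upp2 had 110, the element 2 windows of Cyp4f16 and Olfr867 had 91 and the element 1 windows of Mir6393 and Bclaf3 had 73. The element 3 window at Slc22a30 had 60 in common with that of Cdk6 and also with that of Speer6-ps1. The regions with element 2 had a median log2 ratio of −0.86 and a median width of 9642 bp, and 28 of the 32 were distal intergenic.

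The gene promoters below are shown because they are among the 5 promoters in loss regions with the largest H3K27me3 rises described further on. They are the 300 bases around the gene start given by RefSeq for GRCm38.p6, from 250 bases before it to 50 after, and every CG is in capitals.
Fgf4 promoter, chr7:144861136-144861435, plus strand: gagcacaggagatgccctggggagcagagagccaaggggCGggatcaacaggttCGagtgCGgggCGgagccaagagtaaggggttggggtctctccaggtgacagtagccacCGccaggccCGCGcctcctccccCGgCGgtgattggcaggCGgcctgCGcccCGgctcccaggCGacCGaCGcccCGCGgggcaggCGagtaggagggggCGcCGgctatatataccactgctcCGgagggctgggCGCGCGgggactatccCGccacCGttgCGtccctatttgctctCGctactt
Utf1 promoter, chr7:139943606-139943905, plus strand: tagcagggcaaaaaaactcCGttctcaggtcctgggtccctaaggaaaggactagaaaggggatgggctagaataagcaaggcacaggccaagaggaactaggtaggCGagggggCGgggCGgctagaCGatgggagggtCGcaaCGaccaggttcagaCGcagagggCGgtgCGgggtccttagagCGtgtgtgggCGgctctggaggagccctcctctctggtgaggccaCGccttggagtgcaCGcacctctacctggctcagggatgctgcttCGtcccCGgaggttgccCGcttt
Inhbb promoter, chr1:119422199-119422498, minus strand: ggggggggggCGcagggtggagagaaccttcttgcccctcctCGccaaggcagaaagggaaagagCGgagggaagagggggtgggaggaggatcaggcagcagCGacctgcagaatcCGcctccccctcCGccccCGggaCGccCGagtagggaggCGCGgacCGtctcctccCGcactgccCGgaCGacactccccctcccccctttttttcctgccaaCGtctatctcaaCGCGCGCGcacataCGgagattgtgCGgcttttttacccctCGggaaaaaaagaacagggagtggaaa

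These promoters held 28, 17 and 23 CG pairs for Fgf4, Utf1 and Inhbb. The median over the 165 matched promoters of loss regions was 11, against 20 over the 4903 promoters of all regions in the table and 7 over 27025 mouse promoters. At loss regions where H3K27me3 rose, 23 promoters had a median of 21 CG pairs, and where it fell, 30 promoters had a median of 17.

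The H3.3 reads of the loss regions were fewer at day 6 but did not reach 0. An H3.3 peak called by the authors in both duplicates lay at 86 loss regions (7.93%) at day 6 and at 1054 (97.2%) at day 0. These peaks come from the libraries that chose the regions. How much of the day 6 signal is background was not tested. Summed over all loss regions, the H3.3 signal was 23.9 and 22.8 scaled reads per kb in the day 6 libraries and 38.7 and 38.7 in the day 0 libraries. The 2 day 6 libraries lay below the day 0 pair, as the rule requires. Regions under neither rule had 30.4 and 29.0 scaled reads per kb at day 6 and 32.8 and 32.8 at day 0. The median log2 ratio was −0.74 over the loss regions and −0.12 over all regions. In 150 loss regions it was −1 or lower, in 245 between −1 and −0.8, and in 689 between −0.8 and −0.6. The gap between the days, from the lower day 0 library to the higher day 6 library, had a median of 0.65 on the log2 scale. The duplicates differed by a median of 0.10 at day 6 and 0.07 at day 0. The rule requires a gap between the days, so these distances describe the choice and give no separate support. The authors' deposited table gives a false discovery rate below 0.05 for 1082 of the 1084 loss regions and for 50.4% of all regions. That rate comes from the same H3.3 libraries that chose the regions, so it gives no separate support. Just inside the threshold lay Olfr293, B3gnt7 and A630089N07Rik at −0.60023, −0.600435 and −0.600474, and just outside Lrp1b, 4930548H24Rik and D030045P18Rik at −0.599892, −0.599625 and −0.599374. With the ratios centred on the median of all regions, 599 regions would meet the rule.

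Among loss regions at or above the median day 0 signal of the table, the lowest ratios belonged to Pnp2 and Fgf4. The Pnp2 region (chr14:50967496-50982613, 11355 bp from the gene start, a purine nucleoside phosphorylase) had 248 and 246 scaled reads at day 6 and 565 and 573 at day 0. The Fgf4 region (chr7:144847504-144877020) holds the promoter of a growth factor that stem cells secrete. It had 531 and 510 scaled reads at day 6 and 1194 and 1180.0 at day 0, a log2 ratio of −1.19. In both regions the day 6 libraries lay below the day 0 libraries, as the choice of the lowest ratios requires.

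The Abo region (chr2:26878520-26888377, downstream of a glycosyltransferase gene) carries element 1. It had 304 and 283 scaled reads at day 6 and 679 and 659 at day 0. Cyp2b23, a cytochrome P450 gene, had its promoter in a region with 715 and 702 at day 6 and 1515 and 1536 at day 0. The Inhbb gene, which codes for the inhibin beta B subunit of activin, has 3 loss regions. The one furthest reduced (chr1:119322365-119359052, 63196 bp from the start) had 691 and 663 scaled reads at day 6 and 1446 and 1404 at day 0. The one with the promoter (chr1:119387526-119512000) had 2472 and 2310.4 at day 6 and 3925 and 4001 at day 0. The remaining regions of this kind, at Adgrb1, Arc, E2f8, AI662270, Sst, Gm5129 and Pax5, had log2 ratios of −1.02 to −0.97. Arc, a neuronal immediate early gene, and Adgrb1, an adhesion G protein-coupled receptor gene, lie in a run of 5 loss regions on chromosome 15 with Mroh4, Lynx1 and Ly6e.

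**Figure D1:**
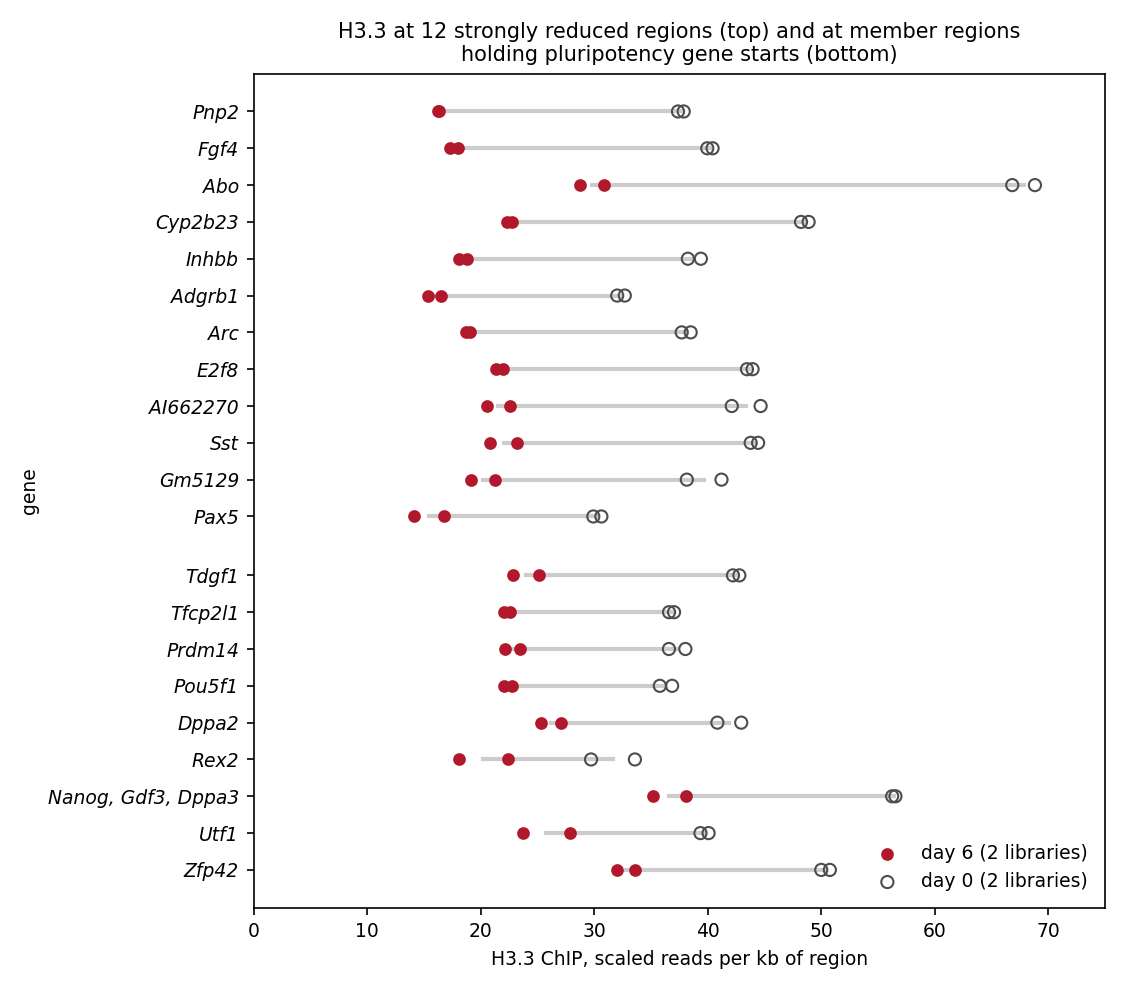
H3.3 ChIP signal in scaled reads per kb of region (horizontal axis) at 12 strongly reduced regions and at the 9 loss regions that hold the GENCODE start of a pluripotency gene, with 1 point per library (2 at day 6, filled; 2 at day 0, open) and a grey line between the means. The day 6 points lie left of the day 0 points in each region, as the choice of the regions requires. No region is near 0 reads, and how much of the day 6 signal is background was not tested.

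The lowest ratios of all, chosen after their values were seen, came from narrow distal intergenic regions. A region of 2070 bp near Nptx2, which codes for a neuronal pentraxin, had 32.9 and 30.3 scaled reads at day 6 and 129 and 117 at day 0 (log2 ratio −1.93). Scgb1b27, Zp4-ps, Mir6393, CK137956 and Cyp4f16 followed at −1.82 to −1.69, each with a region under 3 kb. At the other end, the most H3.3 reads lay in broad regions. The region chr6:122578071-122893297, which the deposited annotation names after Mir7231, spans 315227 bp and holds the starts of Nanog, Gdf3 and Dppa3. It had 12022 and 11081 scaled reads at day 6 and 17828 and 17737 at day 0. The Myc region (chr15:61969349-62215554, the gene of a growth-promoting transcription factor) had 5480 and 5209 at day 6 and 8939 and 9161 at day 0, a log2 ratio of −0.76.

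Starts of pluripotency genes lay in loss regions more often than gene starts did in general. Of 24 listed core and naive pluripotency factors with a start inside any region of the table, 11 had it in a loss region (45.8%), against 313 of 11511 protein-coding genes (2.72%). Pou5f1, the gene of the factor Oct4, had 2916 and 2835 scaled reads at day 6 and 4591 and 4730.0 at day 0. Tdgf1, which codes for a Nodal co-receptor, had 1580.3 and 1436 at day 6 and 2659 and 2694 at day 0, the lowest ratio of these starts (log2 −0.83). Zfp42, also called Rex1 and a common marker of naive stem cells, had 5187 and 4943 at day 6 and 7716 and 7833 at day 0. The transcription factor genes Tfcp2l1 and Prdm14, Dppa2, Rex2 and Utf1 made up the rest. The 13 other listed factors fell short of the rule, with log2 ratios of −0.58 at Klf5 and −0.57 at Sox2 to −0.25 at Stat3. The starts counted here are GENCODE gene starts. By the deposited gene names Esrrb, a transcription factor gene, and Fgf4 were among the listed factors that had a loss region as well. The deposited annotation puts both of these regions at the promoter, and the RefSeq promoter of Fgf4 lies inside its region. No start of 37 HOX genes, 19 neural progenitor genes, 18 endoderm genes or 10 housekeeping genes with a region in the table lay in a loss region. For lists of this size 0 is near the general share of 2.72%. Of other lists, 3 of 11 starts of surface ectoderm and epithelium genes (27.3%) and 1 of 7 of trophoblast genes lay in loss regions.

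Most loss regions, however, held no gene start. Of the 1084, 885 (81.6%) held no start of a protein-coding gene, against 59.8% of all regions. The deposited annotation puts 551 (50.8%) at distal intergenic places, against 24.7% of all regions, and 261 (24.1%) at promoters, against 47.7%. A further 121 lay in introns and 81 in exons. The distal loss regions had a median distance of 53456 bp from the nearest start, shorter than the 124188 bp of distal gain regions and the 71928 bp of all distal regions. The median width was 10385 bp for the loss regions, 11506 bp for the gain regions and 19824.5 bp for the table. Gain regions were also less often at promoters (14.2%) and more often distal intergenic (40.5%) than the table. Of the 206 regions under 3 kb, 83 were loss regions (40.3%), against 90 of 2866 regions over 50 kb (3.14%). Narrow regions hold fewer reads: 351 of the 1084 loss regions had at least the median day 0 reads of the table. The part of read number in this difference was not tested. H3.3 peaks in both duplicates were present at day 0 only in 970 loss regions (89.5%) and at day 6 only in 469 gain regions (96.5%). Of the 13242 regions under neither rule, 4632 had such peaks on both days. The sets thus differ in the day that brought a peak, and the part of this in the differences of place and width was not tested.

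Repeat-masked sequence was frequent in the loss regions. The share of a region written in lower case in the RefSeq genome, which marks interspersed and simple repeats, had a median of 33.8% in loss regions, 19.3% in gain regions and 26% in the others. At least 50% was masked in 277 loss regions (25.6%), in 0 gain regions and in 362 others (2.73%). Of the 320 regions with a masked share of 60% or more, 179 (55.9%) were loss regions, and of those under 20% 4.84% were. The 277 had a median log2 ratio of −0.85 and a median width of 7256 bp, and 77.6% were distal intergenic. Those under 50% had −0.72 and 12101 bp. Over all regions Spearman's rho of masked share and log2 ratio was −0.32, a description over 14811 regions of the same 4 libraries. How reads with several places in the genome were treated is not given in the sources used here.

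**Figure D2:**
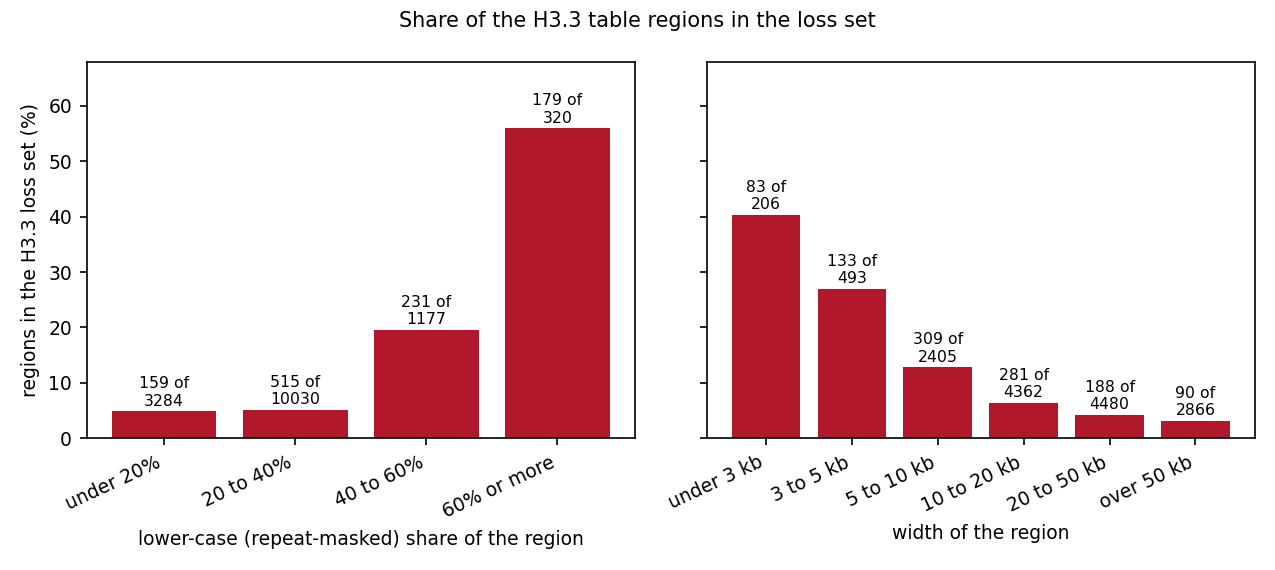
Share of the H3.3 table regions that belong to the loss set (percent, bars from 0), by the repeat-masked share of the region (left) and by its width (right), with the numbers of loss regions and of all regions above each bar. The share is 4.84% under 20% masked and 55.9% at 60% or more, and 40.3% under 3 kb and 3.14% over 50 kb.

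Some loss regions lay near each other. Taking regions less than 200 kb apart as a run, 418 (38.6%) lay in 175 runs of at least 2, a share that was not compared with other regions. The longest run had 9 loss regions in 480.1 kb of chromosome 13 (chr13:62077813-62557901) around Zfp808, Gm3604 and Zfp935. Another with 6 lay at chr13:66545389-66888886 around 2410141K09Rik, whose gene name stands on 5 loss regions with log2 ratios of −1.40 to −0.68. Mgat5b, a glycosyltransferase gene, and Tfap2c, the gene of a transcription factor of germ cells and trophoblast, had 4 loss regions each. Gene names of olfactory receptors stood on 32 loss regions (2.95%), against 0.419% of all regions, those of vomeronasal receptors on 17 (1.57%, against 0.351%) and those of cytochrome P450 genes on 18 (1.66%, against 0.297%). How reads that match several copies of a gene family were counted is not given in the sources used here. Chromosome 13 had 86 loss regions of 778 (11.1%) and chromosome 8 had 16 of 1368 (1.17%). The median log2 ratio on chromosome 8 was 0.07 for H3.3, 0.04 for H3 and 0.00 for H3K27me3, against −0.12, −0.08 and −0.13 over all regions.

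H3 was also lower at most of the loss regions that the H3 table covers. The deposited H3 table holds 6618 regions, of which 171 overlapped 158 loss regions (14.6% of them). H3 was lower at day 6 in 113 of the 171 (66.1%) and higher in 4 (2.34%) by limma on log2(scaled reads + 1), adjusted p below 0.05. The same test called 34.3% of all H3 regions lower and 18% higher. The median log2 change was −0.25 at loss regions and −0.08 over the table. At H3 regions overlapping only H3.3 regions under neither rule, 47.1% were lower and 11.3% higher, with a median of −0.14. At 22 H3 regions that overlap H3.3 gain regions, 1 was lower and 12 were higher. With each library centred on its median, 55.0% at loss regions were lower, against 22.7% of the table, and 6.43% higher, against 24.4%. At distal intergenic places 43 of 74 were lower (58.1%), against 16.3% of all distal H3 regions, and at promoters 34 of 45 (75.6%), against 60.4%.

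The largest H3 fall lay at a distal region near Mir6951, with 131 and 121 scaled reads at day 6 and 212 and 213 at day 0 (log2 −0.75 ± 0.12, SE, limma adjusted p = 1.27e-06). Zfp369 and Gm10324 on chromosome 13 had 165 and 139 at day 6 and 235 and 213 at day 0, and 137 and 149 at day 6 and 205 and 211 at day 0. Both pairs of day 6 libraries lay below the day 0 libraries. Dlgap1 and Epp13 were next, at log2 −0.52 each. Of the 4 higher regions, the one near Polr3k, a gene of an RNA polymerase III subunit, rose by 0.14 ± 0.03 on the log2 scale (limma adjusted p = 4.69e-05). The other 3, at Grik2, Olfr835 and Apbb1ip, no longer passed without the second day 6 library or without the second day 0 library, and Apbb1ip also without the first day 0 library. Their changes without the second day 6 library were 0.16, 0.20 and 0.12.

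H3K27me3 changed in both directions at loss regions, with a larger share of rises than in the whole table. Of 10491 regions in the deposited H3K27me3 table, 225 overlapped 199 loss regions (18.4% of them). By limma on log2(scaled reads + 1), 48 were higher at day 6 (21.3%), against 5.56% of the table, and 77 were lower (34.2%), against 39.4%. The median log2 change was −0.10 at loss regions and −0.13 over the table. With each library centred on its median, 36.9% were higher, against 24.8% of the table, and 17.3% lower, against 23.4%. At promoters 36 of 127 were higher (28.3%), against 4.17% of all promoter regions of the table. The 48 lay at 42 loss regions, and 75% of them were promoter regions.

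The largest rises were at Inhbb, Spry4, Utf1, Fgf4 and Kirrel2. At the Inhbb promoter (chr1:119416064-119424379) H3K27me3 had 495 and 422 scaled reads at day 6 and 166 and 173 at day 0, a log2 change of 1.42 ± 0.10 (SE, limma adjusted p = 1.08e-39). Spry4, an inhibitor of receptor tyrosine kinase signalling, had 919 and 801 at day 6 and 335 and 321 at day 0 (1.39 ± 0.08). Utf1, a chromatin factor of undifferentiated cells, had 345 and 305 at day 6 and 137 and 118 at day 0 (1.35 ± 0.12). In each of these the lower day 6 library was above the higher day 0 library.

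Fgf4, whose H3.3 ratio was among the lowest, had 515 and 481 scaled reads of H3K27me3 at day 6 and 221 and 222 at day 0 (1.16 ± 0.10, limma adjusted p = 1.64e-30). Kirrel2, an adhesion molecule gene, had 788 and 730.3 at day 6 and 339 and 343 at day 0 (1.15 ± 0.09). Other promoters with a rise included those of the Wnt antagonist gene Notum (0.87) and of Tdgf1 (0.80). Foxd3, a gene of a factor of the formative epiblast and neural crest, rose by 0.31.

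Of the 77 regions with less H3K27me3, 47 were promoter regions. Spred2, a Ras pathway inhibitor gene, fell to 393 and 380 scaled reads at day 6 at a distal region, against 659 and 663 at day 0 (log2 −0.77 ± 0.09, limma adjusted p = 8.49e-18). Dnmt3b, which codes for a de novo DNA methyltransferase, fell to 526 and 489 at day 6, against 797 and 879 at day 0 (−0.72 ± 0.08). Sez6, Agpat3 and Nt5e had log2 changes of −0.74, −0.74 and −0.72. Pluripotency genes were on both sides: H3K27me3 regions annotated to the promoters of Tdgf1 and Utf1 rose, while those of Zfp42, Rex2 and Dppa3 fell. The Dppa3 region lies in the loss region that also holds the Nanog start. In the loss region with the Prdm14 start, the region that fell was annotated to the Slco5a1 promoter.

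**Figure D3:**
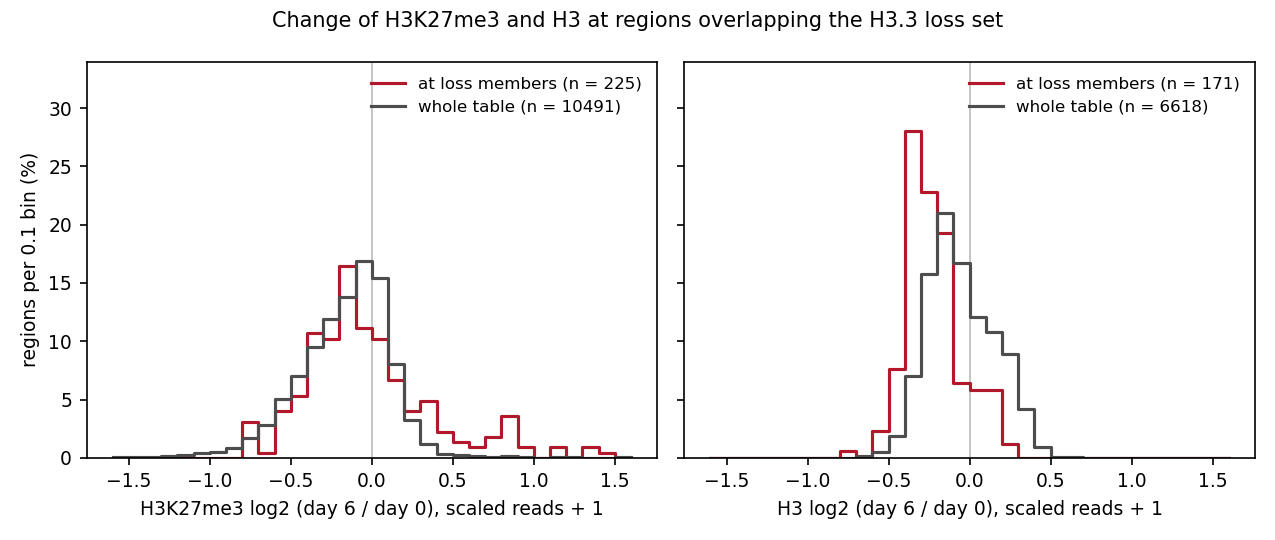
Distribution of the log2 change from day 0 to day 6 of H3K27me3 (left) and H3 (right), as percent of regions per bin of 0.1, for regions overlapping the H3.3 loss set and for the whole table. H3 at loss regions is shifted to the left (median −0.25 against −0.08), and H3K27me3 at loss regions reaches further above 0, with 21.3% called higher against 5.56%.

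The genes with rising H3K27me3 at a loss region were mostly less expressed at day 6. Of the 38 genes of these 48 regions that were tested in the RNA of 2019, 29 were lower at day 6 (76.3%) and 3 higher, with a median log2 change of −2.69. Of 54 tested genes at the 77 regions with less H3K27me3, 21 were lower and 22 higher, and at the 100 regions with no call 31 of 56 were lower and 13 higher. Over all genes 36.6% were lower and 41.4% higher. Of tested genes with a loss region at the promoter, 108 of 155 were lower (69.7%) and 20 higher. Promoter regions made up 36 of the 48 with a rise, 47 of the 77 with a fall and 44 of the 100 with no call. The part of place in these RNA shares was not tested. H3K27me3 peaks, called by the authors per library and counted when present in both duplicates, lay at 39 of the 42 loss regions with a rise at day 6 and at 8 at day 0. They lay at 38 of the 74 loss regions with a fall at day 6 and at 64 at day 0. At the 92 with no call the numbers were 47 at day 6 and 50 at day 0. The same libraries gave the H3K27me3 calls, so these peak counts describe that choice.

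**Figure D4:**
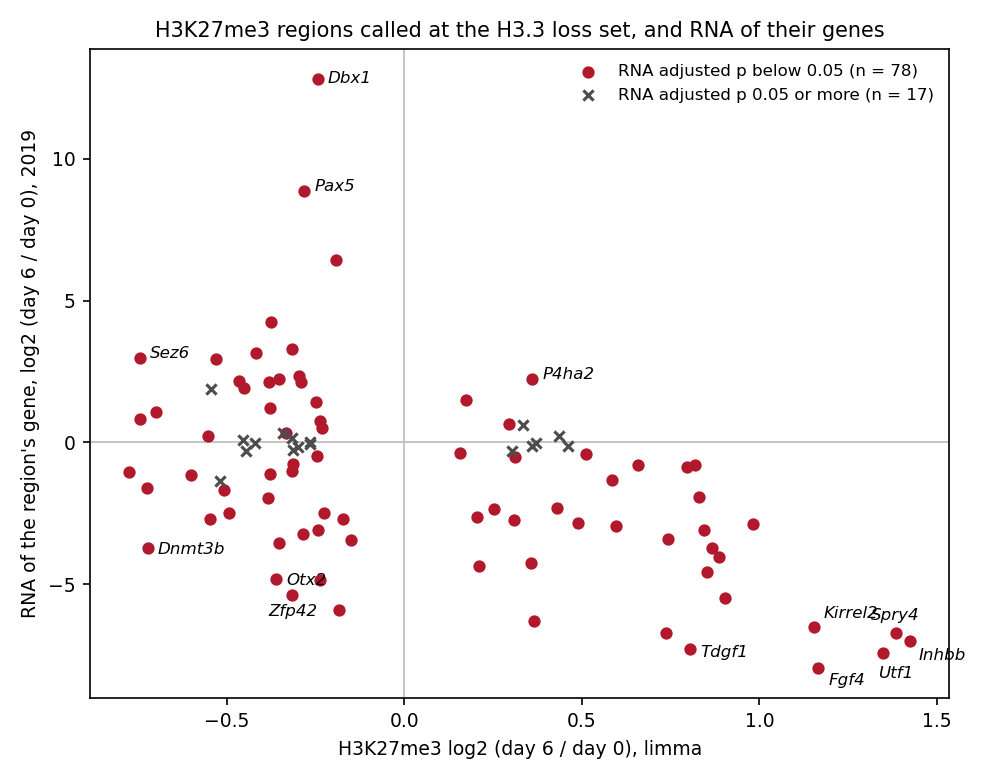
RNA change of the named gene (vertical axis, log2 of day 6 over day 0 in 2019, edgeR) against the H3K27me3 change (horizontal axis, log2 of day 6 over day 0, limma) for the called H3K27me3 regions at H3.3 loss regions whose gene was tested; filled points passed the RNA test and crosses did not. Inhbb, Spry4, Utf1, Fgf4 and Kirrel2 stand at the lower right, while regions with less H3K27me3 spread on both sides of 0 for RNA.

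Peaks of H3.3K27me3 were found at 47 loss regions (4.34%) at day 6 and at 222 (20.5%) at day 0. In regions under neither rule the shares were 17.5% at day 6 and 23.7% at day 0, and in gain regions 4.94% at day 6 and 3.91% at day 0. These are shares of regions with a peak in both duplicates and are not tested. The H3.3K27me3 libraries had 33.6 and 37.8 M tags at day 6 and 81.2 and 55.2 M at day 0. Depth differed between the days, and its part in the shares was not tested. Filtered peaks numbered 26215 and 14483 at day 6 and 14796 and 12690 at day 0. In single libraries the shares at loss regions were 19.9% and 8.30% at day 6 and 42.7% and 30.5% at day 0. With peaks of an enrichment of at least 3 alone, the share was 1.48% on both days. H3K27me3 peaks lay at 10.9% of loss regions at day 6 and at 10.8% at day 0, against 19.9% and 27.9% of regions under neither rule. H3 peaks lay at 2.77% of loss regions at day 6 and at 10.7% at day 0, against 15.6% and 25.2%.

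RNA of the genes named for the loss regions was lower at day 6 somewhat more often than RNA in general. Of 525 such genes tested in 2019, 242 were lower (46.1%, against 36.6% of all genes) and 182 higher (34.7%, against 41.4%) by edgeR's quasi-likelihood test with adjusted p below 0.05. At day 3 against day 0, 245 were lower (46.7%, against 33.8%) and 138 higher (26.3%, against 37.6%). In the 2020 wild-type series 271 of 586 were lower at day 6 (46.2%, against 34.8%) and 158 higher (27%, against 36%). The comparisons of days 3 and 6 share the day 0 libraries. Of genes tested in both years, 199 were lower in both, which is 83.3% of those lower in 2019 and 79.6% of those lower in 2020. For all genes the shares were 79.4% and 81.3%.

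The place of the region divided these genes. Where a loss region lay at the promoter, 108 of 155 tested genes were lower at day 6 in 2019 (69.7%) and 20 higher (12.9%), with a median log2 change of −1.78. Over the genes of all promoter regions of the table, 37.3% were lower and 42.6% higher. Genes with loss regions at distal intergenic places alone had 71 of 224 lower (31.7%) and 104 higher (46.4%). All distal intergenic regions of the table had 27.2% lower and 55.1% higher. By GENCODE gene starts, 162 of 231 tested genes with a start inside a loss region were lower (70.1%) and 29 higher. The gene of a distal region is the nearest by the deposited annotation, and no data here link the region to it.

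**Figure D5:**
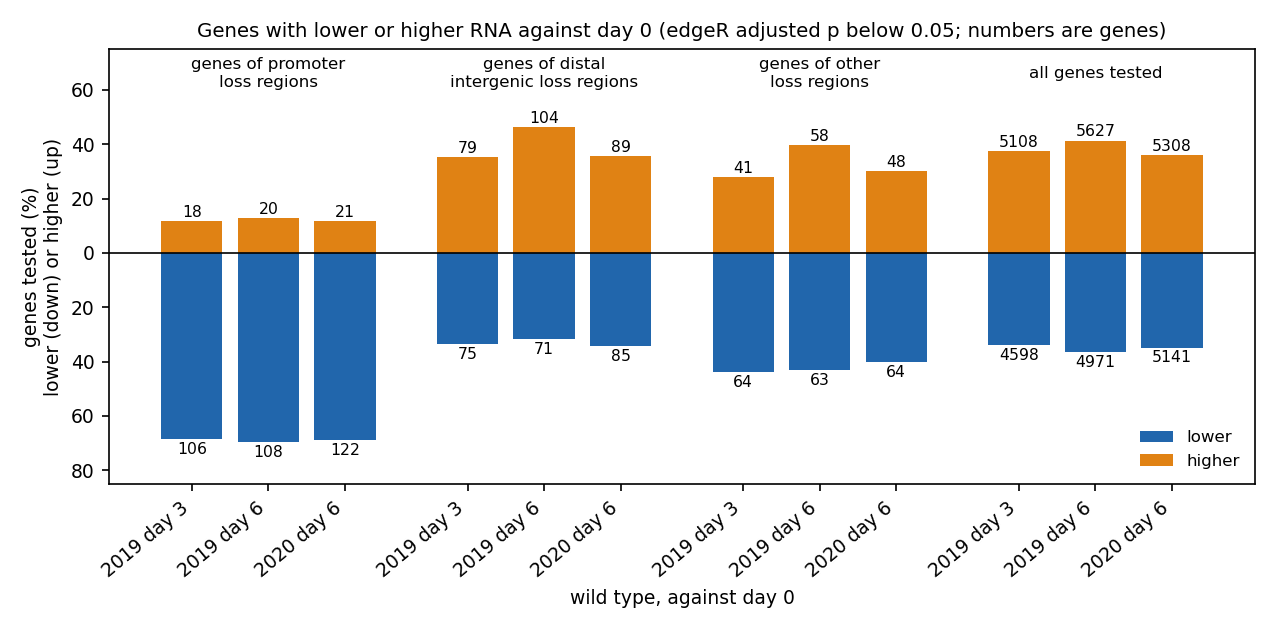
Percent of tested genes with higher (up, orange) or lower (down, blue) RNA than at day 0 in wild-type cells (edgeR adjusted p below 0.05) for genes of loss regions at promoters, at distal intergenic places and elsewhere, and for all genes tested; numbers are genes. For promoter loss regions 68.4% are lower at day 3 and 69.7% at day 6 of 2019 and 68.9% at day 6 of 2020.

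All 14 pluripotency factors with a loss region at the start or by gene name were lower at day 6 of 2019, with a median log2 change of −5.46. The 13 listed factors whose start lay in a table region outside the loss set were lower too, from −6.11 on the log2 scale at Dppa5a to −0.36 at Stat3 (edgeR adjusted p below 0.05 for each). Fgf4 had 269.7 and 251 CPM at day 0, 8.09 and 7.28 at day 3 and 0.517 and 1.65 at day 6 (log2 −7.97 ± 0.19 at day 6, SE, edgeR adjusted p = 1.80e-12). Tdgf1 had 869 and 902 CPM at day 0, 15.2 and 14.6 at day 3 and 5.39 and 5.94 at day 6. Most of either fall had taken place by day 3. Utf1 had 532 and 524 CPM at day 0, 27.2 and 22.8 at day 3 and 2.44 and 3.75 at day 6, and Zfp42 827 and 781, then 76.5 and 68.1, then 14 and 12.8. Dppa3, a maternal factor gene, fell least, by 2.49 ± 0.21 (edgeR adjusted p = 1.63e-07).

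Among the other large falls was Platr10, a non-coding RNA of stem cells, which had 83.4 and 97.7 CPM at day 0, 1.21 and 1.13 at day 3 and 0.0738 and 0.183 at day 6 (log2 −9.41 ± 0.25, edgeR adjusted p = 4.08e-12). The log2 changes of Inhbb and Spry4 were −7.02 ± 0.16 and −6.72 ± 0.12, and that of Pcolce2, whose product enhances procollagen processing, was −6.29 ± 0.23. Fcgr2b, an Fc receptor gene, had 0 counts in both day 6 libraries and 32 at day 0 and was at least 15.5-fold lower, against a floor of 3 counts over the group. By deposited gene name, the 8 largest falls were those of Platr10, Fgf4, Fcgr2b, Tdgf1, Inhbb, Spry4, Pcolce2 and Zfp42, and each of these genes had a loss region at its promoter. Formative epiblast genes with a loss region, Dnmt3b, Otx2 and Foxd3, had log2 changes of −3.71, −4.80 and −0.51. Foxd3 had 50.3 and 43.0 CPM at day 0, 1.13 and 2.10 at day 3 and 34.4 and 30.3 at day 6. In the 2020 wild type it had 4.01 and 2.53 CPM at day 6 and 36.0 at day 0 (log2 −3.45 ± 0.48, edgeR adjusted p = 0.000121). Myc, Mycn and Tfap2c were lower too (log2 −2.04, −1.67 and −2.72).

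The 8 largest fitted rises of 2019 by deposited gene name, some of them over day 0 libraries at 0, belonged to genes whose loss regions lay away from the promoter. Dbx1, a homeobox gene of the neural tube, had 83.7 and 79.2 CPM at day 6 and 0 counts in both day 0 libraries, at least 459.8-fold higher, and its loss region lay 48572 bp away. Sst, the somatostatin gene, had 40.02 and 41.6 CPM at day 6 and 0 counts at day 0, at least 229-fold higher, and its H3.3 region was among the 12 lowest ratios of loss regions with at least the median day 0 reads of the table. Nr2f1, the gene of the orphan receptor COUP-TFI, was at least 130.2-fold higher, and its region lay 760643 bp away. Foxf2, Pax5 and Naaladl2 were at least 67.2-, 29.4- and 12.7-fold higher, and Epha5 and Cdh6 rose by 8.07 and 7.49 on the log2 scale. The order is that of the fitted log2 change, which is no bound for a gene at 0 counts. Dab2, an endocytic adaptor gene whose loss region is also distal, had 221 and 189 CPM at day 6 and 2.41 and 4.03 at day 0 (log2 5.90), a larger measured rise than the bounds of Pax5 and Naaladl2. In the 2020 wild type, where day 0 is 1 library that the test assumes to vary like the other groups, Sst had 25.4 and 38.8 CPM at day 6 and 0 at day 0. Dbx1 had 3.35 and 1.96 CPM at day 6 and 0 at day 0, Foxf2 1.62 and 2.05 at day 6 and 0.329 at day 0, and Epha5 4.74 and 2.09 at day 6 and 0.0548 at day 0. Pax5, with 0.27 and 0.0872 CPM at day 6 and 0.11 at day 0, was under the filter and was not tested.

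In the edited lines H3f3a, the gene called H3.3A, was low in both. The knockout had 20.9 and 23.1 CPM at day 6 and 22.9 and 21.1 at day 0, the H3.3K27A line 20.4 and 20.5 at day 6 and 21.9 and 24.2 at day 0, and wild type 119 and 114 at day 6 and 129 at day 0. H3f3b, the second H3.3 gene, had 885 and 894 CPM in wild type at day 6. It was higher in the knockout, with 1134 and 1051 CPM (log2 0.30, edgeR adjusted p = 0.0237). In the H3.3K27A line it was lower, with 599 and 599 CPM (log2 −0.57, edgeR adjusted p = 0.00671). At day 0, against 1 wild-type library, its log2 differences were 0.16 in the knockout and −0.67 in the H3.3K27A line.

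Few genes of loss regions differed between the edited lines and wild type, at shares near those of all genes. In the knockout at day 6, 33 of 586 were lower (5.63%, against 4.42% of all genes) and 42 higher (7.17%, against 6.98%) by edgeR. These counts rested on single libraries. Without the second knockout library 21.7% were lower and 18.8% higher, without the first wild-type library 1.03% and 0.687%, and without the second wild-type library 0.685% and 2.05%. Tdgf1 had 89.2 and 52.4 CPM in the knockout and 13.2 and 22.5 in wild type (log2 1.99 ± 0.28, edgeR adjusted p = 0.00393). P4ha2, which codes for a collagen prolyl hydroxylase subunit, had 716 and 419 CPM in the knockout and 115 and 161 in wild type, and Myh14, a non-muscle myosin gene, had 8.33 and 7.72 CPM in the knockout and 18.4 and 19.7 in wild type. Not all pluripotency genes with a loss region were called: Fgf4, Dppa3, Esrrb and Gdf3 were not, at log2 −0.11, −0.48, 0.06 and 0.87. Dppa2 and Zfp42 had log2 differences of 1.06 ± 0.19 and 0.70 ± 0.14 (edgeR adjusted p = 0.00891 and 0.0132). Both calls were lost without the first wild-type library (0.92 and 0.70), and that of Zfp42 also without the second (0.69).

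At day 0 the knockout had 2 lower genes of 586 (0.341%, against 0.0949%), Greb1l and Plce1, and 0 higher (against 0.0271%) by edgeR, each set against 1 wild-type library. At an unadjusted p below 0.05, 17 were lower and 25 higher, and DESeq2 called 0.172% higher. Neither call held without either knockout library, where Greb1l stood at −1.18 and −1.29 and Plce1 at −1.02 and −0.91. The H3.3K27A line at day 6 had 3 lower (0.512%, against 0.908%) and 10 higher (1.71%, against 1.13%). With any of the 4 libraries left out, 0 genes passed in either direction. At day 0 it had 10 lower (1.71%, against 1.17%) and 7 higher (1.19%, against 0.569%), and without either H3.3K27A library about 0.34% were lower and 0 higher. Atp10a, a phospholipid flippase gene, had 6.17 and 5.53 CPM in the H3.3K27A line and 27.3 in the wild-type library (log2 −2.22 ± 0.22, edgeR adjusted p = 0.00107). Greb1l, related to an oestrogen-response gene, had 2.95 and 2.44 CPM, against 11.1 CPM in wild type (−2.02 ± 0.17). In these day 0 comparisons the wild-type arm is 1 library, which the test assumes to vary like the other groups. H3.3 itself was not measured in the edited lines.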

How the data were processed

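The regions and gene lists were chosen with earlier results of these data known. ChIP reads of 3 runs per library were aligned to mm10, and the submitters' processing notes name STAR 2.5.2a, MACS2, DiffBind, HTSeq, deepTools and DESeq2. Peaks were called per library by the authors with MACS2 2.2.6 without a control, per the file headers, which give fold enrichment and −log10 p and q values for each peak. The authors' deposited region tables hold a scaled read signal per library, a log2 difference (day 0 minus day 6), a p-value and an FDR. RNA was deposited by the authors as raw counts per gene, and whether they used strand is not given in the sources used here. Per library, 22.5 to 50.8% of the deposited counts were in rows that name no gene and were left out.

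H3 and H3K27me3 were tested with limma 3.58.1 on log2(scaled reads + 1) over each whole table, and RNA with edgeR 4.0.16 (quasi-likelihood, TMM, low counts filtered) over all genes of a year. P-values were adjusted by Benjamini-Hochberg over all features, with a threshold of 0.05. The scripts were tested on simulated data. ChIP libraries for H3 and H3K27me3 held 54.2 to 68.9 M tags, and fold limits from a floor of 3 counts cover counting error only. Regions overlapped when they shared at least 1 base (bedtools 2.31.1), and a peak counted when present in both duplicates. Named regions were the 12 lowest ratios among well covered loss regions, the 6 with the most reads, those nearest the threshold, genes with 4 or more loss regions and the 5 largest H3 or H3K27me3 changes each way. Named genes were those of these regions, the 8 largest falls and rises of RNA, list members and calls in the edited lines; some of these genes are not reported here. Alternatives were another normalization, no filter, DESeq2 1.42.0, library centring, other peak rules, the replicate number as a block and each library left out.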

Additional observations from a re-analysis of the deposited data

How the results depend on the processing

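Of the summary values recomputed, 140 stayed within 1.5 times (for peak shares, within 1 SD of the duplicates) and 80 moved further. None of the named regions or genes changed direction, while 7 region values and 178 gene values lost their call. The loss rule took 599 regions with centred ratios, 150 at a threshold of −1, and 1001 to 1337 with only 1 library per day. For H3 at loss regions, 6.43% were higher with centred libraries and 4% with the centred rule. For H3K27me3, centring gave 17.3% lower and 36.9% higher. Leaving out a library gave 48.5 to 58.5% lower and 0.585 to 2.92% higher for H3, and 21.8 to 34.2% lower and 15.6 to 22.2% higher for H3K27me3. The causes of these differences were not tested.

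For RNA at day 6 of 2019, promoter genes gave 69.7% lower and 12.9% higher, and genes with a start inside gave 70.1% and 12.6%. At day 3 the higher shares were 11.6% and 12.1%. In 2020 they were 11.9% and 12.7%, with 70.0% lower by starts. Leaving out a library gave 43.1 to 47.4% lower and 31.5 to 34.3% higher at day 6 of 2019, 41.4 to 46.1% and 22.0 to 25.9% at day 3, and 43.0 to 43.8% and 23.0 to 24.1% in 2020.

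The labels do not say that replicate numbers pair the samples. The correlation of same-numbered deviations was −0.01 for H3, −0.10 for H3K27me3, −0.36 for knockout and wild type at day 6 and 0.141 for H3.3K27A and wild type at day 6. With the replicate number as a block, 2.90% were lower in the knockout at day 6 and 0% at day 0. In H3.3K27A the block gave 0.341% lower and 1.02% higher at day 6, and 0.853% and 0.171% at day 0. A block with crossed numbers, added after seeing the data, called 86 lower and 51 higher of 225 H3K27me3 regions, and 40 lower and 55 higher of 586 genes in the knockout at day 6.

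In the knockout at day 0, 0.133% were higher without the filter and 0.172% by DESeq2. Lower genes were 0% for promoters and for starts and 0.637% by the centred rule. In H3.3K27A at day 6, lower genes were 1.33% without the filter, 0.963% by DESeq2 and 0% for promoters and for starts, and higher genes 2.89% by DESeq2, 4.52% for promoters and 2.69% for starts. At day 0, higher genes were 0.512% with DESeq2 size factors, 1.86% without the filter, 2.98% by DESeq2 and 0.769% for starts, and lower genes 2.78% by DESeq2. Leaving out a library gave 0.685 to 21.7% lower and 0.687 to 18.8% higher in the knockout at day 6, and 0% each way at day 0. In H3.3K27A it gave 0% each way at day 6, and 0.341 to 0.342% lower and 0% higher at day 0.

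With peaks covering at least 50% of a region or with an enrichment of at least 3, the shares were 9.04% and 1.48% for H3.3K27me3 at day 0, 2.58% and 2.40% for H3K27me3 at day 6, 3.87% and 4.52% at day 0, and 2.86% and 1.38% for H3 at day 0. Single libraries gave 8.30 to 19.9% at day 6 and 30.5 to 42.7% at day 0 for H3.3K27me3, 15.3 to 17.1% and 15.6 to 18.5% for H3K27me3, and 6.00 to 9.59% and 20.02 to 31.1% for H3. Depth differed between the days for H3.3K27me3, and its part in these shares was not tested.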
